A study of Mus musculus with 154 samples.

Results

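Liver RNA was compared between mice that carried A/J-derived copies of both chromosome 6 and chromosome 8, mice that carried only 1 of them, and B6 controls. A chromosome substitution strain (CSS) holds 1 whole chromosome of the donor A/J on a C57BL/6J (B6) background. All mice here were F1 offspring and were therefore heterozygous for the donor chromosome, apart from the B6 mice, which carried none. The members were taken by strain label with the sire written first, and they were 42 mice of 4 of the 24 strains of the series: 6 (B6.A8 X B6.A6)F1 mice (the double CSS), 8 (B6 X B6.A6)F1 mice (the A6 strain), 8 (B6.A8 X B6)F1 mice (the A8 strain) and 20 B6 mice. All 42 were male mice of 5 weeks, fasted overnight before the liver was taken, and the labels name no drug or special diet. The labels do not say which mice shared litters or sequencing runs, so that p-values treat each mouse as separate. They rest on the spread between mice within strains, estimated over all 24 strains and not over these 42 mice alone. The donor chromosome 8 always came from the sire and the donor chromosome 6 from the dam, so that parent of origin cannot be told apart from the chromosome, and every allelic difference on a whole chromosome was compared at once.

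Epistasis is the case in which the effect of 1 locus depends on the genotype at another. On a log2 scale an additive double CSS would differ from B6 by the sum of the differences of both single strains, and the interaction is what remains after that sum is subtracted. In the fasted liver, hepatocytes release glucose through gluconeogenesis, burn fatty acids to make ketone bodies, dispose of amino acid nitrogen through the urea cycle and secrete most plasma proteins, including clotting factors. A gene on a chromosome whose donor copy enters a comparison is called cis and any other gene trans, so that genes of chromosomes 6 and 8 are cis for the interaction and for the double CSS against B6, and genes of 1 of these chromosomes where only that one differs.

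The table held raw counts for 13289 genes, of which 1403 lay on chromosomes 6 and 8. The totals of the double CSS lay between 4638701 and 30465477 counts, those of the A6 strain between 14438123 and 24134282, those of the A8 strain between 12679770 and 27281291 and those of B6 between 6752637 and 25630807. The shallow end of the double CSS is 1 mouse, replicate 2. Levels are given as CPM, which are counts scaled to the normalized size of each library. A gene was called at a Benjamini-Hochberg adjusted p under 0.05 in edgeR's quasi-likelihood F-test, fitted on all 24 strains with 5 surrogate variables, which are estimates of unlabelled sources of variation. The fitted log2 fold changes are adjusted for these variables and can differ from the ratio of the mean CPM values.

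The A8 strain differed from B6 at far more genes than the double CSS, which carries the same donor chromosome 8. In the A8 strain 3939 genes differed from B6, 29.6% of the genes tested, with 1719 higher (12.9%) and 2220 lower (16.7%). In the A6 strain 1075 genes differed, 8.09% of those tested, with 572 higher (4.3%) and 503 lower (3.79%), and 636 differed without its replicate 3. The double CSS, with both donor chromosomes, differed from B6 at 299 genes, 2.25% of those tested, with 193 higher (1.45%) and 106 lower (0.798%), and at 126 without its replicate 1 and 167 without its replicate 4.

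The interaction between chromosomes 6 and 8 was called at 3299 genes, 24.8% of those tested. The double CSS was above the sum of both single effects at 1786 of them (13.4%) and below it at 1513 (11.4%). The size of this count rests on the surrogate variables: with 0 of them 29.9% of the genes tested were called, with 10 of them 3.18%, and with the mean level of the small nucleolar RNA genes as a further covariate, which was added after seeing the data, 14.8% (1967 genes). At an unadjusted p under 0.05 there were 4787 genes. The study's own list of interaction genes for this cross, also at a threshold of 0.05, was shorter, and the reason was not tested. The median size of a called interaction was 0.43 on the log2 scale, and 243 called genes exceeded 1. All 3 comparisons with B6 and the interaction share the B6 mice, so their values are set side by side and not correlated. Both single strains also enter the interaction with a minus sign. Genes low in the A8 mice therefore lean toward positive interaction calls, so that these counts are not separate findings in the lists below.

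**Figure D1:**
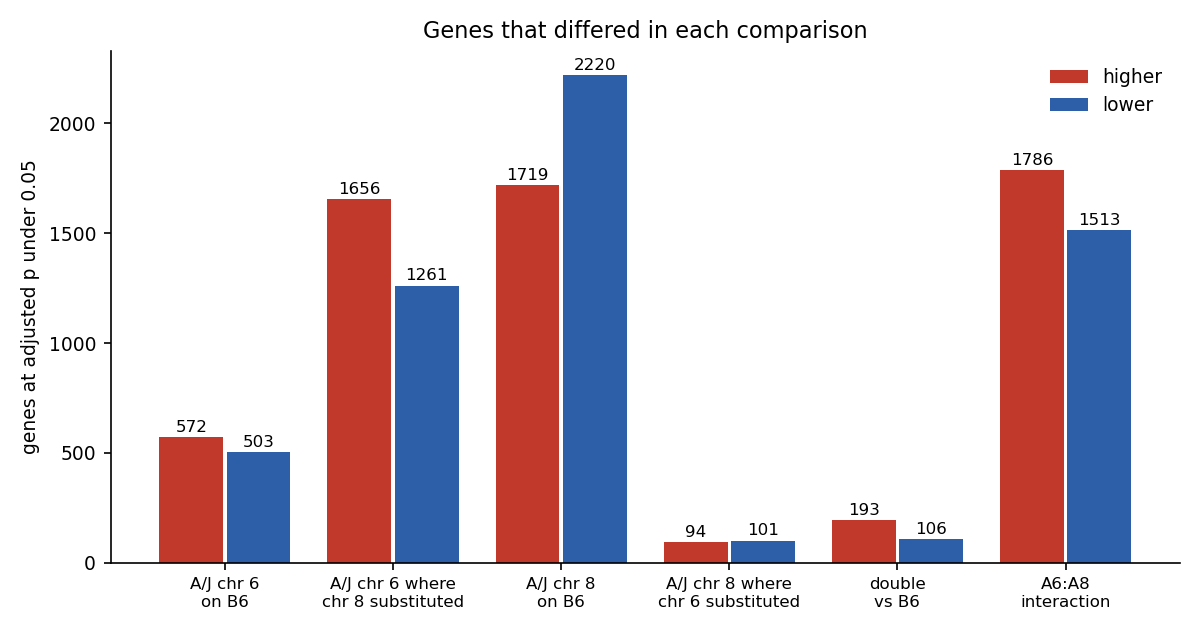
The bars count the genes at an adjusted p under 0.05 (vertical axis, number of genes) that were higher (red) or lower (blue) in each comparison; the horizontal axis names the comparison. The donor chromosome 8 gave 1719 higher and 2220 lower genes on the B6 background, and 94 higher and 101 lower genes where chromosome 6 was substituted too.

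The same substitution can be read on both backgrounds from different mice. On the B6 background the A8 strain was compared with B6, and on the A6 background the double CSS was compared with the A6 strain, where 195 genes differed, 1.47% of those tested, with 94 higher (0.707%) and 101 lower (0.76%). Leaving out 1 mouse at a time moved this count between 67, without replicate 1 of the double CSS, and 378, without replicate 4 of the A6 strain. The difference between both effects is the interaction tested above. The median standard error was 0.094 in the first comparison and 0.11 in the second. The genes that were higher in the A8 strain than in B6 had a median log2 fold change of 0.32 there and of -0.09 on the A6 background. The lower genes had a median of -0.29 on B6 and of 0.06 on the A6 background, beside a median of 0.003 over all genes. Both comparisons called 98 genes, which are 2.49% of the first list and 50.3% of the second, and 59 of these 98 had opposite directions.

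The effect of the donor chromosome 6 also differed between backgrounds. Against B6 it gave the 1075 genes above, and against the A8 strain the double CSS differed at 2917 genes, 22% of those tested, with 1656 higher (12.5%) and 1261 lower (9.49%). The genes higher in the A6 strain than in B6 had a median log2 fold change of 0.28 on B6 and of -0.1 where chromosome 8 was substituted too. The lower genes had medians of -0.28 and 0.16. Of 328 genes called on both backgrounds, 30.5% of the first list and 11.2% of the second, 282 had opposite directions and 46 the same.

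The genes that the study named or examined for this cross are given mouse by mouse. The study drew them from these same counts, so that their interactions here are no independent support. Agxt encodes the peroxisomal alanine-glyoxylate aminotransferase, which detoxifies glyoxylate. Its CPM was lowest at 171.7, with a median of 222.4 and a highest value of 326.4, in B6. In the A6 strain it ran from 144.4 through 192.4 to 230.5. In the A8 strain it ran from 89.6 through 120.7 to 151.3, below every B6 mouse. The double CSS held 194, 210.6 and 272.7 as its lowest, median and highest values, above every A8 mouse and inside the B6 range. The interaction was 1.07 ± 0.16 (log2, SE; adjusted p = 1.79e-07 by edgeR), and the double CSS differed from B6 by 0.05 ± 0.11 (adjusted p = 0.879).

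Agt encodes angiotensinogen, the precursor of the angiotensin peptides, and lies itself on chromosome 8 at chr8:124556534-124569706 (mm10). In the A8 strain its CPM ran from 184 through 214 to 319.1, below all B6 mice, which lay between 381.5 and 589.8. The double CSS lay between 342.6 and 405.1, above all A8 mice and with only part of its range inside that of B6. The double CSS differed from B6 by -0.36 ± 0.09 (adjusted p = 0.00234 by edgeR) and the A8 strain by -0.85 ± 0.09 (adjusted p = 2.47e-15), and the interaction was 0.55 ± 0.13 (adjusted p = 0.000489).

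Serpinf2 encodes alpha-2-antiplasmin, the main inhibitor of plasmin. Its CPM was 309.2 to 553.2 in the A8 strain and 570.8 to 712.1 in the double CSS, so that these groups did not overlap, and the B6 mice, at 551.4 to 970.9, covered the whole range of the double CSS. The interaction was 0.76 ± 0.12 (adjusted p = 1.85e-06 by edgeR). Ldha, the A subunit of lactate dehydrogenase, ran from 433.4 to 694.7 in the A8 strain and from 697.7 to 1219 in the double CSS, again without overlap, with an interaction of 0.94 ± 0.16 (adjusted p = 2.39e-06).

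Usp18 and Tecr had another form, in which neither single strain was called and the double CSS was higher than all other groups on average. Usp18, the protease that removes the ubiquitin-like protein ISG15, ran from 6.28 through 11.7 to 21.3 CPM in B6, from 9.32 to 17 in the A6 strain and from 7.53 to 12.2 in the A8 strain. In the double CSS it ran from 15.2 through 18.6 to 24.6, above all A8 mice and overlapping the other groups. Its interaction was 0.99 ± 0.23 (adjusted p = 0.000482 by edgeR), and against B6 the double CSS was higher by 0.65 ± 0.15 (adjusted p = 0.00117). Tecr, the reductase of the last step of very long chain fatty acid elongation, ran from 72.3 to 86.5 in the double CSS, above all mice of the A6 strain (highest 70.8) and of the A8 strain (highest 67.8), whereas the highest B6 mouse reached 77.7. Its interaction was 0.55 ± 0.1 (adjusted p = 7.86e-06), and it was higher than in B6 by 0.41 ± 0.07 (adjusted p = 5.55e-07). Usp18 lies on chromosome 6 and Tecr on chromosome 8. The interactions of Agt, Usp18 and Tecr were not called with 10 surrogate variables, and those of Agxt, Serpinf2 and Ldha were.

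**Figure D2:**
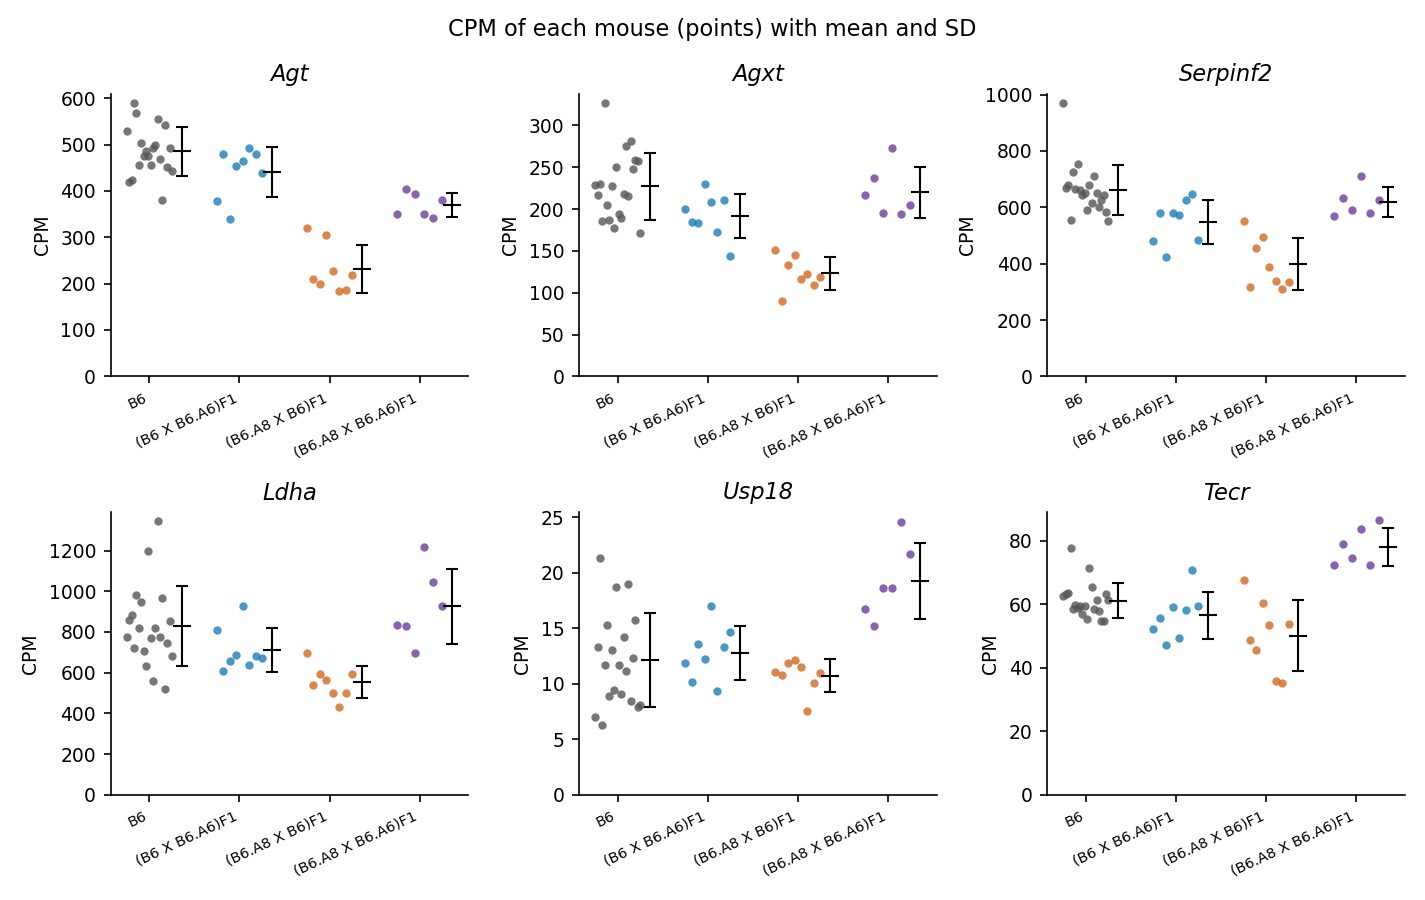
Each point is the CPM (vertical axis) of 1 mouse in the 4 strains (horizontal axis), and the black mark and bar give the mean and SD. For Agxt, Serpinf2 and Ldha the A8 mice lie below all mice of the double CSS, and for Tecr the 6 double CSS mice, at 72.3 to 86.5, lie above all mice of both single strains.

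Among the gene groups of fasting metabolism, the A8 strain was low and the double CSS had no call. Of 18 measured gluconeogenesis genes, 12 were lower in the A8 strain than in B6 and 0 higher, with a median log2 fold change of -0.49, beside 16.7% of all genes called lower and a median of -0.01 over all genes. In the double CSS 0 of the 18 were called in either direction, beside 2.25% of all genes, and the median was -0.05. With so few calls over all genes, 0 calls in the double CSS do not set this list or any list below apart. The interaction was positive at 11, where 13.4% of all genes had a positive call, and negative at 0. The gene lists were put together with earlier results of these data known, so their counts describe them and are no independent test.

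Pcx encodes pyruvate carboxylase, the entry step of gluconeogenesis in mitochondria. Its median was 499.1 CPM in B6, 368.2 in the A6 strain, 248.4 in the A8 strain and 474.4 in the double CSS, and every A8 mouse lay below every mouse of B6 and of the double CSS, whose lowest was 370. Its interaction was 1.06 ± 0.16 (adjusted p = 3.79e-07 by edgeR). Fbp1, fructose-1,6-bisphosphatase, had an interaction of 0.56 ± 0.1, and the A8 mice, at 549.4 to 804.5, again lay below the double CSS, at 873.6 to 1163. Got1, the cytosolic aspartate aminotransferase, had an interaction of 1.51 ± 0.28 with a wide spread in the double CSS, from 313.2 to 932.4. Mdh2, mitochondrial malate dehydrogenase, had an interaction of 0.52 ± 0.1.

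Most genes of amino acid catabolism and the urea cycle were lower in the A8 strain than in B6. Of 40 measured genes, 28 were lower and 1 higher in the A8 strain than in B6, beside 16.7% and 12.9% of all genes. In the double CSS 0 were called, beside 2.25% of all genes. The interaction was positive at 22 and negative at 1, beside 13.4% and 11.4% of all genes. Cps1, the first enzyme of the urea cycle, had medians of 10040 CPM in B6, 6475 in the A6 strain, 4670 in the A8 strain and 8178 in the double CSS. Its ranges overlapped between the double CSS, at 5755 to 10567, and the A8 strain, at 3218 to 6516, and the interaction was 0.97 ± 0.15 (adjusted p = 5.22e-07 by edgeR). Bckdha, a subunit of the branched-chain ketoacid dehydrogenase, and Fah, the last enzyme of tyrosine breakdown, had interactions of 0.46 ± 0.08 and 0.49 ± 0.09.

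Fatty acid oxidation genes and other targets of the nuclear receptor PPARalpha followed. Of 30 measured, 20 were lower and 1 higher in the A8 strain than in B6, beside 16.7% and 12.9% of all genes. In the double CSS 0 were called, beside 2.25% of all genes. A positive interaction was called at 16 and a negative one at 0, beside 13.4% and 11.4% of all genes. Cpt1a, which carries fatty acids into mitochondria and limits their oxidation, ran from 353.8 through 470.6 to 563 CPM in the A8 strain and from 688.3 to 988 in the double CSS, without overlap, and its B6 median was 797.7. The interaction of Cpt1a was 1.12 ± 0.16 (adjusted p = 1.79e-07 by edgeR). Creb3l3, a liver transcription factor of the fasting response, had an interaction of 0.53 ± 0.1. With 10 surrogate variables the positive interactions fell to 1 of 30 in this list, 5 of 18 in gluconeogenesis and 10 of 40 in amino acid catabolism. The medians were 0.13, 0.35 and 0.27 in this order. Over all 13289 genes 252 had a positive call under that setting, in place of 1786.

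Coagulation and acute-phase genes had about as many interaction calls under that setting as with 5 surrogate variables. Of 27 measured genes of coagulation and fibrinolysis, 19 were lower and 1 higher in the A8 strain than in B6, beside 16.7% and 12.9% of all genes. In the double CSS 0 were called, beside 2.25% of all genes. A positive interaction was called at 18 and a negative one at 1, beside 13.4% and 11.4% of all genes. Under 10 surrogate variables 16 were positive and 0 negative, where 252 of all 13289 genes were positive and 170 negative. The summed CPM of these genes ran from 20150 through 25320 to 32770 in the A8 strain, from 30400 through 34160 to 35650 in the double CSS, from 29020 to 35610 in the A6 strain and from 31790 to 51770 in B6. Serping1, the C1 inhibitor, had a lowest value of 564.8 CPM in the double CSS and a highest value of 538.5 in the A8 strain, and an interaction of 0.7 ± 0.11 (adjusted p = 1.25e-06 by edgeR). The clotting factor F5 had an interaction of 0.68 ± 0.11 and plasminogen, encoded by Plg, of 0.66 ± 0.11. Plg was tightly held in the double CSS, between 1611 and 1711 CPM, and ranged from 790.6 to 1566 in the A8 strain.

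Of 25 acute-phase genes, 13 were lower and 1 higher in the A8 strain than in B6, beside 16.7% and 12.9% of all genes. In the double CSS 0 were called, beside 2.25% of all genes. A positive interaction was called at 11 and a negative one at 0, beside 13.4% and 11.4% of all genes. Under 10 surrogate variables 13 were positive, where 252 of all 13289 genes were. Itih3, a chain of the inter-alpha-trypsin inhibitors, differed from B6 in both single strains, by -0.47 in the A6 strain and by -0.58 in the A8 strain. On the A6 background the donor chromosome 8 went the other way, with Itih3 higher in the double CSS than in the A6 strain by 0.52 ± 0.13 (adjusted p = 0.0283 by edgeR), and the interaction was 1.09 ± 0.17. Serpina3n, a secreted protease inhibitor of the acute phase, Itih4 and the fibrinogen chain gene Fga had interactions of 1.26 ± 0.2, 1.24 ± 0.21 and 0.97 ± 0.18. Fga reached 3573 CPM in the highest A8 mouse and 3587 in the lowest mouse of the double CSS, so that these ranges lay next to each other without overlap.

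Other lists of liver metabolism and plasma proteins differed in their calls. For comparison, 13.4% of all genes had a positive and 11.4% a negative interaction call. The interaction was positive at 10 and negative at 1 of 20 glycolysis genes, positive at 11 and negative at 2 of 20 genes of apolipoproteins and lipoprotein assembly, positive at 9 and negative at 3 of 20 complement genes and positive at 10 and negative at 0 of 24 targets of ATF4, the transcription factor of the amino acid response. It was positive at 8 and negative at 2 of 19 genes of fatty acid synthesis, positive at 5 and negative at 2 of 20 genes of bile acid synthesis and transport, and positive at 4 and negative at 0 of 25 genes of cholesterol synthesis. Negative calls outnumbered positive ones in 3 lists of detoxifying genes. Of 28 antioxidant targets of NRF2, 1 was positive and 5 were negative. Of 42 cytochrome P450 genes of families 1 to 3, 4 were positive and 6 negative. Of 14 carboxylesterase genes of chromosome 8, 0 were positive and 2 negative. The counts of the cholesterol synthesis, P450 and carboxylesterase lists are near the shares of all genes and do not set these lists apart. Of the glycolysis, apolipoprotein, complement and ATF4 lists only the ATF4 targets held a call between the double CSS and B6: Aars, alanyl-tRNA synthetase, was higher by 0.2 ± 0.07 (adjusted p = 0.0352 by edgeR), and this call was lost without replicate 1 of the double CSS. Atf5 and Slc7a5, both ATF4 targets, had interactions of 0.76 ± 0.17 and 0.99 ± 0.27.

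**Figure D3:**
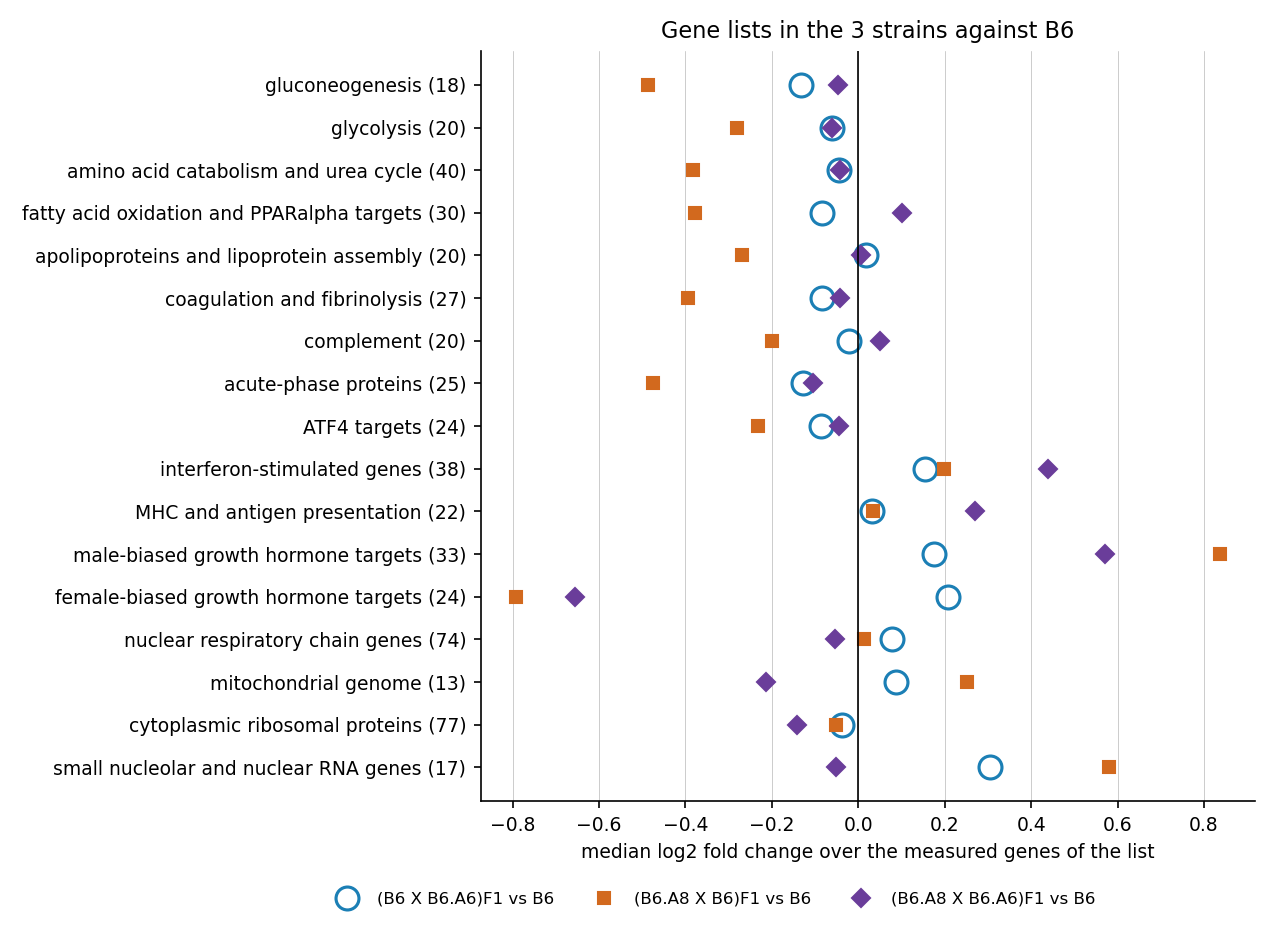
The horizontal axis gives the median log2 fold change over the measured genes of each list (vertical axis, number of genes in brackets) against B6, with an open circle for the A6 strain, a square for the A8 strain and a diamond for the double CSS. For gluconeogenesis the medians are -0.13, -0.49 and -0.05, and for male-biased growth hormone targets 0.17, 0.84 and 0.57.

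The largest positive interactions among well expressed genes that were called with 0, 5 and 10 surrogate variables were led by Saa1. Saa1 and Saa2 encode serum amyloid A, Lcn2 lipocalin 2, Igfbp1 an insulin-like growth factor binding protein that rises in fasting, Gadd45g a growth arrest gene, Ddit4 an inhibitor of mTORC1, Tff3 a trefoil peptide and Asns asparagine synthetase. Their interactions were 3.71 ± 1.01 for Saa1, 3.44 ± 1.06 for Saa2, 3.51 ± 0.78 for Lcn2, 2.26 ± 0.55 for Igfbp1, 2.18 ± 0.61 for Gadd45g, 2.13 ± 0.63 for Ddit4, 2.02 ± 0.63 for Tff3 and 1.98 ± 0.51 for Asns. Lcn2 ran from 4.01 through 8.65 to 69.9 CPM in the double CSS and from 3.76 through 8.96 to 187.6 in B6, and the ranges of all 4 strains overlapped. Saa1 ran from 14 to 996.8 in B6 and from 22.7 to 299.6 in the double CSS, and reads of Saa1 and Saa2 may be split between these near-identical copies. In B6 the SD exceeded the mean, at 233.1 beside 118.6 CPM for Saa1 and 53.6 beside 32.2 for Lcn2. No B6 mouse was left out in the alternatives, so that the weight of single B6 mice in these interactions was not tested. The call of Saa2 was lost without replicate 5 of the double CSS.

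The double CSS lay apart from both single strains for Gadd45g. It ran from 13.9 through 19 to 25.6 CPM in the double CSS, above all A6 mice (highest 10.3) and all A8 mice (highest 12.8), and inside the range of B6, at 4.53 to 28.3. It was higher in the double CSS than in the A6 strain by 1.72 ± 0.46 (adjusted p = 0.0362 by edgeR) and than in the A8 strain by 1.63 ± 0.47 (adjusted p = 0.0068). Asns and Tff3 had another form, with both single strains called lower than B6 and no call in the double CSS, whose fitted difference from B6 was -0.99 for Asns (adjusted p = 0.0656 by edgeR) and -1.09 for Tff3 (adjusted p = 0.2). Asns, which lies on chromosome 6, had medians of 15.7 CPM in B6, 3.6 in the A6 strain, 7.6 in the A8 strain and 6.98 in the double CSS.

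The largest negative interactions by the same rule were led by Gm22973, a small nuclear RNA gene, at -1.62 ± 0.33. Arrdc3, an arrestin domain gene, followed at -1.56 ± 0.49, then Inmt, an indolethylamine methyltransferase, at -1.37 ± 0.33, the aldo-keto reductase gene Akr1c20 at -1.1 ± 0.22, the glutathione transferase gene Gsta3 at -1.04 ± 0.18 and the uncharacterized gene Gm44250 at -1.03 ± 0.16. Gm8941 and C730036E19Rik, which lie next to each other on the same strand of chromosome 1 (chr1:151136507-151137780 and chr1:151138034-151142345), closed the list at -1 ± 0.35 and -0.99 ± 0.31. Gsta3 was called in opposite directions on both backgrounds. It was higher than in B6 in the A6 strain by 0.47 ± 0.11 and in the A8 strain by 0.36 ± 0.12, whereas the double CSS differed from the A6 strain by -0.68 (adjusted p = 0.00731 by edgeR) and from the A8 strain by -0.56 (adjusted p = 0.00228). Its CPM ran from 292.5 through 457.7 to 719.5 in B6, from 472.3 through 673 to 1008 in the A6 strain, from 415.4 through 520.5 to 756.8 in the A8 strain and from 270 through 385.8 to 525.2 in the double CSS.

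Interactions were called on every chromosome. They were called at 300 of 1403 cis genes (21.4%) and at 2999 of 11886 trans genes (25.2%), and at between 20.8% and 28.4% of the genes of each chromosome, X included. The 4 cis genes of chromosome 6 with the smallest interaction p were C1galt1, which makes the core 1 structure of O-glycans, Ndufa4, a subunit of cytochrome c oxidase, Chmp3, a part of the ESCRT-III complex, and Cnbp, a nucleic acid binding protein, with interactions of -0.71 ± 0.09, -0.69 ± 0.1, -0.54 ± 0.08 and -0.47 ± 0.07. C1galt1 ran from 92.2 through 102.3 to 116.2 CPM in the A8 strain, from 77.4 to 92.2 in the A6 strain, from 66.5 through 72.4 to 78.7 in the double CSS and from 55.6 through 68.2 to 109.5 in B6. C1galt1 was higher in the A8 strain than in B6 by 0.53 ± 0.06, and the double CSS differed from B6 by -0.09 ± 0.06 (adjusted p = 0.504 by edgeR).

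On chromosome 8 the corresponding genes were Got2, Lcat, Wwp2 and Nae1. Got2, the mitochondrial aspartate aminotransferase, ran from 118.3 through 149.4 to 210.5 CPM in the A8 strain and from 217.3 through 241.7 to 276.6 in the double CSS, which lay within the B6 range of 211 to 300.5. Lcat, which esterifies cholesterol in plasma lipoproteins, lay between 171.3 and 288.5 in the A8 strain and between 290 and 343.1 in the double CSS. The interactions of Got2, Lcat, the ubiquitin ligase gene Wwp2 and Nae1, a subunit of the NEDD8-activating enzyme, were 0.74 ± 0.1, 0.51 ± 0.08, 0.66 ± 0.1 and -0.58 ± 0.09.

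The genes that still separated the double CSS from B6 lay on the donor chromosomes and elsewhere. They were 54 of 712 genes on chromosome 6 (7.58%), 69 genes on chromosome 8 (9.99%) and 1.48% of the 11886 trans genes. These shares come from separate adjustments for cis and trans genes and were not tested against each other. At an unadjusted p under 0.05 the shares were 20.2% of the cis and 15.8% of the trans genes. Among well expressed genes called with 0, 5 and 10 surrogate variables, the highest were the histone gene Hist4h4 on chromosome 6 and Fam89a, Nudt7 and Snord13 on chromosome 8. Hist4h4 ran from 5.18 to 8.85 CPM in the double CSS and from 5.51 to 10.3 in the A6 strain, against 2.57 to 4.52 in the A8 strain and 1.2 to 6.53 in B6. The log2 fold change from B6 was 1.32 ± 0.17 in the double CSS and 1.28 ± 0.14 in the A6 strain, and the interaction of Hist4h4 was -0.18 ± 0.25 (adjusted p = 0.671 by edgeR).

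Fam89a had the mirror form, with 1.29 ± 0.18 in the double CSS and 1.43 ± 0.18 in the A8 strain. Nudt7, a peroxisomal enzyme that cleaves coenzyme A, had 1.23 ± 0.21 and 1.01 ± 0.21. Snord13, a small nucleolar RNA, had 1.2 ± 0.35 and 1.97 ± 0.32, and its call against B6 was lost without replicate 1 of the double CSS. For the cis carboxylesterases, 2 of 14 were called in the double CSS, Ces1b at 0.89 ± 0.11 and Ces1f at 0.57 ± 0.14. Of all genes on chromosome 8, 9.99% were called, so that this count does not set the family apart. Reads may be split among the copies of this family.

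The lowest genes by the same rule were Defb1, 1810053B23Rik, Mug2 and Slc41a3. Defb1, a beta-defensin gene of chromosome 8, ran from 4.07 through 8.26 to 17.6 CPM in B6, from 5.25 to 9.77 in the A6 strain, from 4.36 to 6.76 in the A8 strain and from 1.68 through 2.27 to 3.19 in the double CSS, which lay below every mouse of the other strains. The double CSS differed from B6 by -1.69 ± 0.2 (adjusted p = 2.1e-11 by edgeR), from the A6 strain by -1.48 and from the A8 strain by -0.85. The interaction of Defb1 was -0.65 ± 0.27, with an adjusted p of 0.0706. Mug2, a murinoglobulin gene of chromosome 6 whose reads may be split with related copies, differed from B6 by -1.07 in the double CSS and by -1.19 in the A6 strain. Slc41a3, a magnesium transporter gene of chromosome 6, differed by -0.98 and -1.39. The uncharacterized trans gene 1810053B23Rik differed by -1.25 in the double CSS, a call lost without its replicate 1.

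Of 38 measured interferon-stimulated genes, 11 were higher and 0 lower in the double CSS than in B6, where 1.45% of all genes were called higher, and the median log2 fold change was 0.44 over the list and -0.001 over all genes. The called genes, named after their values were seen, included the transcription factors Irf7 and Irf9, Usp18, the effectors Ifit2, Ifi27, Oasl1 and Parp14, the RNA sensor Dhx58 and the GTPases Igtp and Irgm1. Irf7, the main amplifier of the type I interferon response, ran from 9.98 through 15.7 to 23.3 CPM in B6, from 15.9 to 25.5 in the A6 strain, from 16 to 28.7 in the A8 strain and from 17.3 through 23.6 to 34.9 in the double CSS. The ranges overlapped, and the double CSS was higher than B6 by 0.64 ± 0.11 (adjusted p = 5.21e-05 by edgeR).

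Calls in the same direction were present in both single strains. Against B6, 3 of the 38 genes were higher in the A6 strain, where 4.3% of all genes were, and 8 were higher and 1 lower in the A8 strain, where 12.9% of all genes were higher and 16.7% lower. The interaction was positive at 3 and negative at 2, beside 13.4% and 11.4% of all genes, so that these counts do not set the list apart. The median log2 fold changes were 0.16 in the A6 strain and 0.2 in the A8 strain. The summed CPM of the 38 genes had medians of 888.8 in B6, 1092 in the A6 strain, 1107 in the A8 strain and 1098 in the double CSS. Usp18, Lgals3bp, Iigp1 and Bst2 had the smallest interaction p in the list, with 0.99 ± 0.23, 0.53 ± 0.12, -0.56 ± 0.18 and -0.44 ± 0.15. Without replicate 1 of the double CSS, 3 of the 11 calls against B6 were left, and the count over all genes was 126 in place of 299. That mouse had the highest summed level of small nucleolar RNA genes in the double CSS, 846.7 CPM, and its part in the interferon calls was not tested further.

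**Figure D4:**
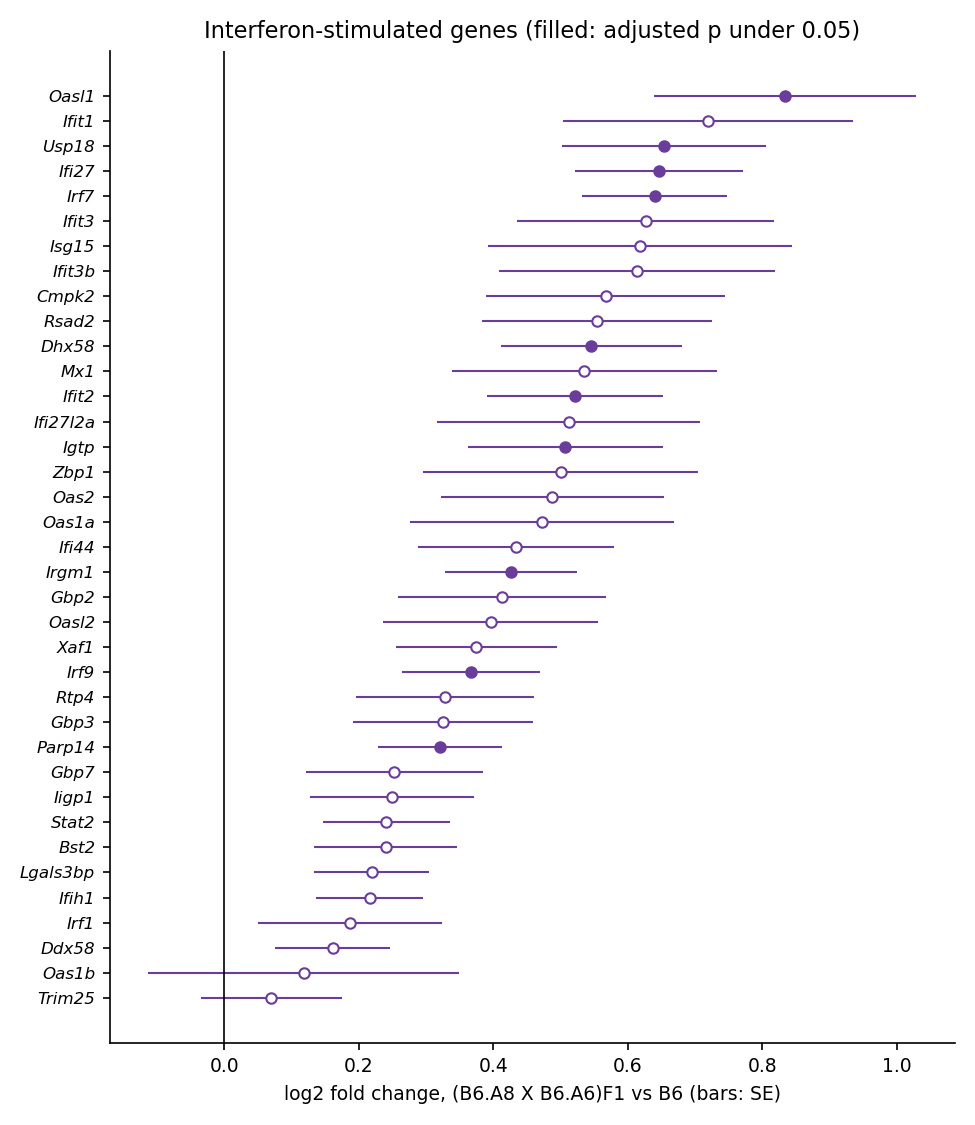
The horizontal axis gives the log2 difference between the double CSS and B6 for 37 of the 38 measured interferon-stimulated genes (vertical axis), with SE bars and filled points at an adjusted p under 0.05. Oasl1, at 0.83, and Usp18, at 0.65, are among the 10 filled points.

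Type I interferon acts through a promoter element that a complex containing IRF9 binds. The letters GAAANNGAAA, on either strand and with overlapping matches counted, were looked for in the RefSeq promoters of build GRCm38.p6, which span 250 bases before to 50 after a gene's start. They were in 3.44% of 32851 promoters of all genes and in those of 15 of the 26 measured interferon-stimulated genes with an entry. Of the 6 called genes with an entry, Igtp and Irgm1 held it, and both promoters are shown with the match in capitals because they are the called genes that carry it. The match in Irgm1 consists of 2 overlapping copies. The coordinates are chr11:58199306-58199605 on the plus strand for Igtp and chr11:48871371-48871670 on the minus strand for Irgm1.
Igtp: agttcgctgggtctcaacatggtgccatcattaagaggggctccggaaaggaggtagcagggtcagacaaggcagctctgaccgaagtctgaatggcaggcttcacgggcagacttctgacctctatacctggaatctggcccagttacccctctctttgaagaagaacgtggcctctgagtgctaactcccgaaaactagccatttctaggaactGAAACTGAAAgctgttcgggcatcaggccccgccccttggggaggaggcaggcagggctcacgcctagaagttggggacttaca
Irgm1: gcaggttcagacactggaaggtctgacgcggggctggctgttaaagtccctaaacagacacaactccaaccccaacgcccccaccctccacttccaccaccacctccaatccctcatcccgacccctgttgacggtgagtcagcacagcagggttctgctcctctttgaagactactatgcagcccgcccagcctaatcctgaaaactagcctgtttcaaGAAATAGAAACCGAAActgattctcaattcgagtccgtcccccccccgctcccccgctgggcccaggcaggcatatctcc

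Igtp was higher in the double CSS than in B6 by 0.51 ± 0.15 (adjusted p = 0.0455 by edgeR) and ran from 14.7 through 24.7 to 29.1 CPM there and from 8.23 through 15.6 to 24.2 in B6. Irgm1 was higher by 0.43 ± 0.1 (adjusted p = 0.00759), at 46 to 57.7 against 23.3 to 54. Both calls were lost without replicate 1 of the double CSS.

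Antigen presentation genes were called in the same direction. Of 22 measured, 4 were higher in the double CSS than in B6 and 0 lower, beside 1.45% and 0.798% of all genes. They were H2-T22, H2-T23, the peptide transporter gene Tap1 and the immunoproteasome gene Psmb9. Without replicate 1 of the double CSS, 2 genes of the list were called higher. The reads of the H2 genes may be split among similar copies. Tap1 ran from 15.2 through 17.6 to 19.8 CPM in the double CSS, from 7.34 through 12.5 to 17.4 in B6, from 8.23 to 16.5 in the A6 strain and from 11.8 to 22.3 in the A8 strain, and it was higher than in B6 by 0.56 ± 0.12 (adjusted p = 0.00317 by edgeR). The interaction was positive at 5 and negative at 0 of the 22, beside 13.4% and 11.4% of all genes. It was 0.33 ± 0.08 for H2-T23 and 0.43 ± 0.11 for Tapbp, which loads peptides onto MHC class I.

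Many targets of growth hormone in the liver differ between the sexes, since the hormone is released in pulses in males and more evenly in females. Of 33 male-biased genes, 20 were higher and 1 lower in the A8 strain than in B6, with a median of 0.84, and 4 were higher and 0 lower in the double CSS, with a median of 0.57. Of 24 female-biased genes, 1 was higher and 13 lower in the A8 strain, with a median of -0.79. In the double CSS 0 were higher and 1 lower, with a median of -0.66. Over all genes 12.9% were higher and 16.7% lower in the A8 strain, and 1.45% and 0.798% in the double CSS. The called genes of the double CSS were Mup17, Gstp1, Nudt7 and Cspg5, and on the female side Trim24, which lies on chromosome 6. Without replicate 1 of the double CSS, 1 of the 4 male-biased calls was left.

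The interaction was positive at 1 and negative at 8 of the male-biased genes, and positive at 3 and negative at 1 of the 24 female-biased genes, beside 13.4% positive and 11.4% negative over all genes. The share of positive calls among the female-biased genes was thus near that of all genes. With 10 surrogate variables 0 of the male-biased genes were called, beside 3.18% of all genes. Mup3 and Mup10, major urinary proteins whose copies are nearly identical and may share reads, had interactions of -1.05 ± 0.26 and -0.77 ± 0.22, and Slco1a1, an organic anion transporter gene of chromosome 6, of -1.02 ± 0.29. Mup3 ran from 6441 through 7772 to 8339 CPM in the A8 strain and from 4179 through 4939 to 5920 in the double CSS, without overlap, and from 1041 to 6828 in B6. Egfr, the male-biased gene with the positive call, had an interaction of 0.83 ± 0.24. Of the female-biased genes, Atp6v0d2, a subunit of the vacuolar proton pump, and Cyp17a1, a steroid hydroxylase, differed from B6 by -1.96 and -1.72 in the A8 strain, with interactions of 1.8 ± 0.51 and 1.67 ± 0.5. Cyp4a10, a fatty acid hydroxylase, had an interaction of 0.83 ± 0.27.

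Small non-coding RNAs, which total RNA libraries retain in part, were also high in the A8 strain. Of 61 small nucleolar RNA genes, 48 were higher and 0 lower there than in B6, beside 12.9% and 16.7% of all genes. In the double CSS 1 was higher, beside 1.45% of all genes. A positive interaction was called at 0 and a negative one at 33, beside 13.4% and 11.4% of all genes. The summed CPM of the 61 genes ran from 448.1 through 785 to 1034 in the A8 strain, from 207.1 through 370.2 to 846.7 in the double CSS, from 346.4 through 536.4 to 1063 in the A6 strain and from 250.5 through 387.9 to 1029 in B6. Snord17, Snora23, Scarna13 and Scarna6 had interactions of -1.6 ± 0.33, -2.03 ± 0.42, -1.11 ± 0.21 and -1.3 ± 0.28. Genes with an exonic length under 500 bases made up 5% of the genes called higher in the A8 strain, 0.18% of those called lower and 1.31% of all genes with a known length. With the mean level of these RNAs as a covariate, 17 of 27 coagulation genes and 10 of 18 gluconeogenesis genes had a positive interaction call. Over all 13289 genes 1064 had one under that setting, and the other lists are not given for it.

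Genes of the mitochondrial genome had negative interactions as well. Of 13 measured genes, 3 were higher in the A8 strain than in B6, beside 12.9% of all genes, and 0 were called in the double CSS. A negative interaction was called at 7, beside 11.4% of all genes. The mitochondrial ribosomal RNA mt-Rnr2 ran from 58936 through 99950 to 141360 CPM in the A8 strain, from 39461 through 49120 to 53118 in the double CSS, from 54020 to 144510 in the A6 strain and from 38608 to 87575 in B6, so that all mice of the double CSS lay below all mice of both single strains. The interaction of mt-Rnr2 was -1.28 ± 0.28 (adjusted p = 0.000275 by edgeR), that of mt-Co1 -0.55 ± 0.11, that of mt-Nd6 -1.15 ± 0.25 and that of mt-Atp8 -0.87 ± 0.22. Only mt-Co1 of these 4 kept its call with 10 surrogate variables.

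**Figure D5:**
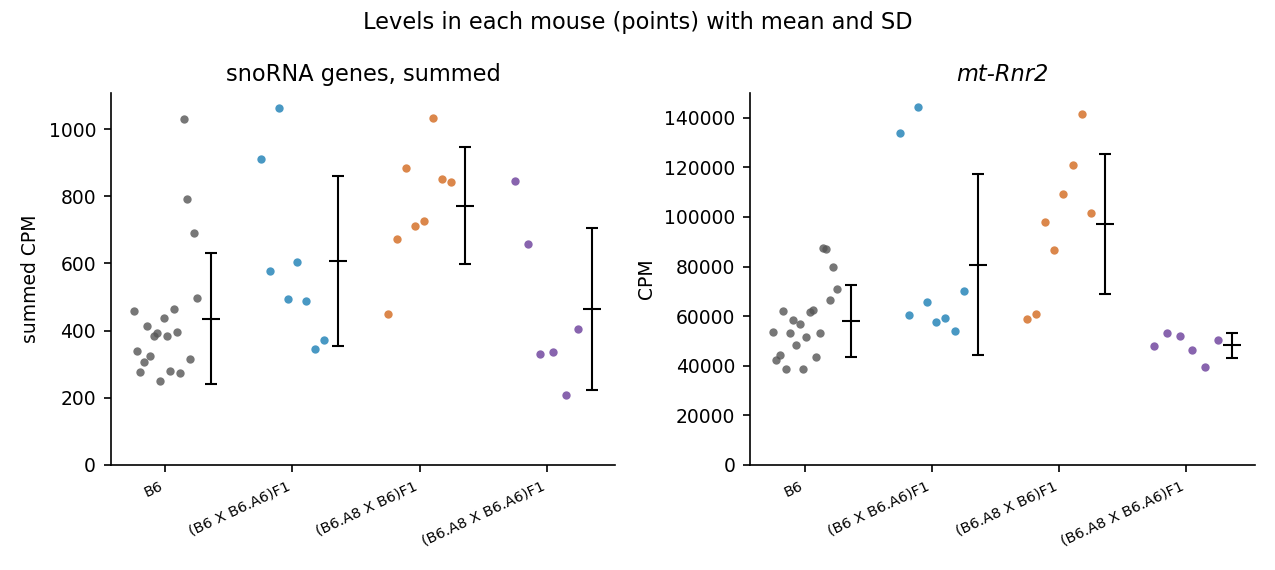
Each point is 1 mouse in the 4 strains (horizontal axis), with the summed CPM of 61 small nucleolar RNA genes in the left panel and the CPM of mt-Rnr2 in the right panel, and the black mark and bar give the mean and SD. For mt-Rnr2 the 6 mice of the double CSS lie between 39461 and 53118, below every mouse of the single strains.

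The nuclear genes of the respiratory chain had calls in both directions. Of 74 measured, 27 were higher and 24 lower in the A8 strain than in B6, 0 were called in the double CSS, and the interaction was positive at 12 and negative at 33. Over all genes 12.9% were higher and 16.7% lower in the A8 strain, and 13.4% had a positive and 11.4% a negative interaction, so that the 12 positive calls are near the share of all genes. The genes with the smallest interaction p encode small subunits: Ndufa4, given above, Ndufa1 at -0.63 ± 0.09, Cox6c at -0.62 ± 0.1 and Ndufb11 at -0.49 ± 0.08. Ndufa1 was called in opposite directions on both backgrounds, higher in the A8 strain than in B6 by 0.28 ± 0.06 and different in the double CSS from the A6 strain by -0.34 (adjusted p = 0.00464 by edgeR). Cox6c reached 121.7 CPM at most in the double CSS and ran from 142.8 through 194.3 to 241.9 in the A8 strain.

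The liver markers were present in all 4 strains. For comparison with their calls, 12.9% of all genes were higher and 16.7% lower in the A8 strain, and 1.45% and 0.798% in the double CSS. The interaction was positive at 13.4% and negative at 11.4% of all genes. The summed CPM of 8 hepatocyte markers ran from 51300 to 101800 in the A8 strain, from 81340 to 98110 in the double CSS, from 94290 to 116700 in the A6 strain and from 92920 to 151700 in B6, and 5 of the 8 were lower in the A8 strain, 4 had a positive interaction and 0 were called in the double CSS. Of 10 Kupffer cell markers, 1 was higher in the double CSS than in B6, Clec4f, which lies on chromosome 6, where 7.58% of genes were called. In the A8 strain 1 was lower than in B6, and 1 had a positive interaction. Their summed CPM lay between 396.9 and 554.5 in the double CSS and between 433.8 and 674.6 in the A6 strain. It lay between 384.5 and 795.1 in the A8 strain and between 403.4 and 656 in B6. Of 8 stellate cell and fibroblast markers, 1 was higher and 3 lower in the A8 strain than in B6, 0 were called in the double CSS, and 3 had a positive and 1 a negative interaction. The genes, named after their values were seen, were the collagen genes Col1a1, Col1a2 and Col3a1, with interactions of 1.26 ± 0.33, 0.85 ± 0.18 and 1.05 ± 0.23, and Lrat, which makes retinyl esters, with -0.42 ± 0.14. Replicate 1 of the double CSS stood high for all 3 collagen genes. The list kept 3 positive interaction calls when any 1 of the 22 substituted mice was left out, replicate 1 included. Of 8 endothelial markers, 2 were higher and 1 lower in the A8 strain, 0 were called in the double CSS, and 2 had a negative interaction, Clec4g on chromosome 8 at -0.65 ± 0.15 and Fcgr2b at -0.44 ± 0.12. These 6 interaction calls were lost with 10 surrogate variables. The summed CPM of the stellate cell and fibroblast markers lay between 352.8 and 502.4 in the A8 strain, between 380.6 and 569.5 in the double CSS, between 353.8 and 453.6 in the A6 strain and between 349.4 and 599.5 in B6. That of the endothelial markers lay between 347.7 and 470.4 over the 4 strains. Of 4 cholangiocyte markers 1 was higher in the A8 strain and 0 had an interaction call, and of 4 erythroid markers 0 were called in any of these comparisons. Of 4 lymphocyte markers 0 were called in the A8 strain, in the double CSS or in the interaction, and of 3 neutrophil markers Lcn2 was the 1 with an interaction call. In whole tissue, fewer cells of a type and less RNA per cell cannot be told apart.

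The interaction was also compared with that of chromosomes 14 and 8, in which B6 and the A8 strain cancel, so that the test rests on both double strains and on the A6 and A14 single strains. It differed at 475 genes, 3.57% of those tested, with 151 higher (1.14%) and the others lower (2.44%). Gadd45g, with a difference of 2.47 ± 0.67 (adjusted p = 0.0213 by edgeR), and Saa1, with 4.3 ± 1.18 (adjusted p = 0.0226), were higher in the interaction of chromosomes 6 and 8, and Inmt, with -1.76 ± 0.36 (adjusted p = 0.00108), was lower. Agxt differed by 0.03 ± 0.17 (adjusted p = 0.962) and Serpinf2 by -0.22 ± 0.14 (adjusted p = 0.435). Among the 33 male-biased growth hormone targets 7 were higher and 0 lower in this difference, and among 18 gluconeogenesis genes 0 were called in either direction. Lower calls in this difference included 6 of 20 glycolysis genes, 5 of 40 genes of amino acid catabolism with 1 higher, 4 of 20 apolipoprotein genes, 9 of 28 NRF2 targets, 7 of 14 carboxylesterase genes with 1 higher, 13 of 74 respiratory chain genes and 5 of 24 female-biased growth hormone targets. They also included 6 of 20 bile acid genes with 2 higher, 4 of 19 genes of fatty acid synthesis and 6 of 42 P450 genes. Lists with fewer lower calls are left out here.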

How the data were processed

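Liver RNA was measured in 154 mice of 24 strains, of which 42 are described. The authors mapped single-end reads of stranded total RNA libraries with TopHat2, first to mm10 and then, for reads left over, to a version of that genome carrying A/J variants. They used HTSeq-count with GENCODE genes and left out weakly expressed ones. The deposited values are raw counts per gene and mouse, without normalization. The authors compared mapping efficiency between strains, and it was not examined again here. Which mice shared a flow cell is not given in the sources used here. Strains were taken from the labels, which list the sire first. Nothing in the labels says how mice share litters.

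From the counts, edgeR (version 4.0.16, R version 4.3.3) with TMM normalization and 5 surrogate variables from svaseq (sva version 3.50.0) was fitted on all 24 strains. Contrasts were tested by the quasi-likelihood F-test (legacy=TRUE) with Benjamini-Hochberg adjustment separately for cis and trans genes at 0.05. Levels are CPM without a prior count. Depth was 4638701 to 30465477 counts per mouse. Positions came from GENCODE vM21, and 47 genes without a position were counted as trans. Tested on simulated data for the interaction, the model recovered 61 of 100 changes of 0.5 on the log2 scale and 94 of 100 changes of 1. It also called 28 of 13089 unchanged genes, which are false calls beside those 61 and 94. The simulated counts held no hidden variation beyond the 5 fitted surrogate variables. They therefore cannot show how many of the real interaction calls would stand if such variation were present.

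Named genes were those the study examined for this cross, the 8 largest interactions in each direction among genes of average log2 CPM of at least 2 called with 0, 5 and 10 surrogate variables, the 4 cis genes per chromosome with the smallest interaction p, the 4 highest and 4 lowest genes of the double CSS against B6, and up to 4 genes per list with the smallest interaction p. The members, gene lists and this rule were chosen with earlier results of these data known. Alternatives were other numbers of surrogate variables, the 4 strains alone, DESeq2 (version 1.42.0) size factors and Wald test, a count filter, adjustment over all genes, and leaving out each of the 22 substituted mice with the surrogate variables and dispersion trend kept; 2 were added after seeing the data. Some genes of the lists are counted but not reported here by name.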

Additional observations from a re-analysis of the deposited data

Results flagged for a closer look

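The effect of each substitution differed with the other at 3299 genes by the interaction test, and the interaction of chromosomes 6 and 8 differed from that of chromosomes 14 and 8 at 475. Over all 13289 genes, 59 had opposite calls on both backgrounds for the donor chromosome 8 and 282 for the donor chromosome 6. Many named genes were chosen by their interaction, which is the difference between both background effects, so that this choice favours opposite calls. For 23 genes named here at least 1 substitution was called in opposite directions, and for Gsta3, Cnbp, Itih3 and Ndufa1 both were. The interactions of the 23 genes by the same test were as follows. Those above 0 were Lcn2 at 3.51, Got1 at 1.51, Serpina3n at 1.26, Cpt1a at 1.12, Itih3 at 1.09, Cps1 at 0.97, Fga at 0.97, Atf5 at 0.76, Got2 at 0.74, Col1a2 at 0.85, Wwp2 at 0.66 and Aars at 0.399. Those below 0 were Snora23 at -2.03, Gm22973 at -1.62, Snord17 at -1.6, Scarna6 at -1.3, Gsta3 at -1.04, Gm44250 at -1.03, Ndufa4 at -0.69, Clec4g at -0.65, Ndufa1 at -0.63, Chmp3 at -0.54 and Cnbp at -0.47.

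In 36 groups, 11.3% of those checked, the gap between 1 mouse and the nearest other, as a share of the range of its strain, passed Dixon's critical value, which by its definition about 5% of groups pass by chance. B6 has more mice than the rule covers and was not checked. In the double CSS, replicate 1 stood high for Nudt7 at 453.5 CPM, Egfr at 758.4, Tapbp at 63.8, Ndufa1 at 43, Snord17 at 90.6, Snora23 at 7.66, Cspg5 at 5.74, Col1a1 at 20.3, Col1a2 at 41.5 and Col3a1 at 179.7, and low for Cyp4a10 at 1646. Replicate 2, the shallowest library, stood low for Ifit2 at 3.98 and high for Ndufb11 at 78.6. Replicate 4 stood low for Akr1c20 at 19.6 and high for Cyp17a1 at 90.6. Replicate 5 stood high for Lcn2 at 69.9 and low for Bckdha at 153.2.

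In the A8 strain, replicate 1 stood high for Bckdha at 158.5 and low for Slc7a5 at 1.06. Replicate 2 stood high for Saa2 at 38, Ddit4 at 15.3, Tap1 at 22.3 and Psmb9 at 11.8, replicate 3 high for Iigp1 at 601.8, replicate 6 low for Usp18 at 7.53, and replicate 8 high for Nudt7 at 539.1 and Egfr at 739.8. One total of this strain, 27281291 counts, stood above the others. In the A6 strain, replicate 2 stood high for Igtp at 34.9, replicate 3 high for Snord13 at 19.1, Mup17 at 140.97 and Scarna13 at 32.5, replicate 5 high for Cyp17a1 at 72.5, replicate 6 low for Irf9 at 24.9, replicate 7 high for Col1a1 at 10.1 and replicate 8 high for Ces1f at 413.7.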

How the results depend on the processing

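The shares of tested genes called moved with the number of surrogate variables, with the mice in the fit and with single mice. With 10 of them the share was 3.18% for the interaction, 3.01% for the A6 strain and 9.2% for the A8 strain against B6, 0.414% and 5.85% for the double CSS against the A6 and the A8 strain, and 2.32% for the difference from the interaction of chromosomes 14 and 8. With 0 it was 4.89% for the double CSS against B6, 4.35% against the A6 strain and 1.81% for that difference. With the 42 mice alone the share was 1.26% for the double CSS against B6 and 0.527% against the A6 strain. With a minimum of 15 counts in 75% of the mice it was 0.658% against the A6 strain. Of the settings added after seeing the data, protein-coding genes alone gave 3.97% for the double CSS against B6, 4.13% for the A6 strain and 0.757% for the double CSS against the A6 strain, and the small nucleolar RNA covariate gave 14.8% for the interaction and 5.15% for the A6 strain. All other shares under the 9 alternatives stayed within 1.5 times, by count, of those reported. The cause was not tested.

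Leaving out each of the 22 substituted mice gave 21.2% to 25.9% for the interaction and 26.5% to 30% for the A8 strain. The range was 0.948% to 2.48% for the double CSS against B6, with the lowest value without its replicate 1 and 1.26% without its replicate 4. It was 4.79% to 8.99% for the A6 strain, lowest without its replicate 3. It was 0.504% to 2.84% for the double CSS against the A6 strain, lowest without replicate 1 of the double CSS and highest without replicate 4 of the A6 strain. It was 18.7% to 23.5% against the A8 strain, and 2.3% to 4.36% for the difference between both interactions, lowest without replicate 4 of the double CSS. Among called genes of the double CSS against B6, 64.5% were higher as reported, 52% with 0 surrogate variables and 53.9% with the count minimum. Against the A6 strain 48.2% were higher, and 36.9% with 0 surrogate variables, 60% with 10, 62.9% with the 42 mice alone and 61.5% with the count minimum. Of 83 named interactions called, 37 lost the call with 10 surrogate variables and 0 without replicate 1 of the double CSS. Of 32 named calls of the double CSS against B6, 2 were lost with 10 surrogate variables and 16 without that mouse. No named call changed its direction under these alternatives. No paired analysis was possible because the labels give no replicate numbers and the numbers used here follow accession order.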
